A study of Mus musculus with 12 samples.

Results

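The genes described here carry iron into the cell, store it, export it, sense it and build it into haem. They were chosen by name and by no rule on measured values, though earlier results of these data were known. They comprise 10 of the 36528 genes in the count table: the transferrin receptors Tfrc and Tfr2, the iron transporters Slc11a2 and Slc40a1, the iron sensor subunit Hfe, the ferritin subunits Fth1 and Ftl1, and the haem enzymes Alas1, Alas2 and Fech. All 10 passed the filter on low counts. The study measured RNA of whole mouse liver by RNA-seq in 12 libraries. Of these, 6 came from mice given carbon tetrachloride (CCl4), a solvent that hepatocytes convert into a toxic radical, and 6 from mice given its corn oil vehicle. Both were injected into the peritoneum 3 times a week for 6 weeks. The sources used here do not state strain, sex or age.

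Iron circulates bound to transferrin, and cells take it up through transferrin receptors. Hepatocytes store iron inside ferritin shells, and cells release it through ferroportin, the product of Slc40a1. The liver also sets the iron supply of the body, since it secretes hepcidin, a hormone that removes ferroportin from cell surfaces. Haem synthesis starts and ends in the mitochondrion: the first and rate-limiting enzyme is ALAS1 in the liver and ALAS2 in developing red cells, and the last, ferrochelatase (Fech), inserts the iron. Much of the haem made by hepatocytes goes into cytochrome P450 enzymes.

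Some of these genes share a sequence feature. Iron regulatory proteins, the products of Aco1 and Ireb2, bind a hairpin called the iron-responsive element when iron is scarce. In a 5′ UTR the bound hairpin blocks translation, and in the 3′ UTR of Tfrc it protects the transcript from decay. The untranslated regions of the GENCODE M21 transcripts were searched on the transcript strand for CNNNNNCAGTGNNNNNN, with 5 of 5 base pairs (G-U pairs allowed) between the bases that flank the loop. Of 21899 protein-coding genes, 0.128% held a match in a 5′ UTR and 0.580% in a 3′ UTR. Among the 10 iron and haem genes 5 held one: Slc40a1, Fth1, Ftl1 and Alas2 in the 5′ UTR, and Tfrc 4 times in the 3′ UTR. No match was found for Tfr2, Slc11a2, Hfe, Alas1 and Fech, which says only that these letters with this pairing are absent. The search cannot find a hairpin of another form, for example with an extra bulge, so these genes are not shown to lack an element. The hairpins are shown because of where they lie. Among the genes with a match, Tfrc held them in the 3′ UTR and the others in the 5′ UTR. Each hairpin is written 5′ to 3′ as DNA, with 5 bases on either side, and capitals mark the bulged C and the CAGTG of the loop.
Tfrc, the first of its elements, chr16:32631220-32631246, plus strand: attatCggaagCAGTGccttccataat
Tfrc, the next, chr16:32631599-32631625, plus strand: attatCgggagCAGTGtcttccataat
Tfrc, the third, chr16:32631664-32631690, plus strand: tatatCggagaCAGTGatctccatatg
Tfrc, the last, chr16:32631711-32631737, plus strand: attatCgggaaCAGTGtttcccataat
Slc40a1, chr1:45925466-45925492, minus strand: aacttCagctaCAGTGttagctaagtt
Fth1, chr19:9982733-9982759, plus strand: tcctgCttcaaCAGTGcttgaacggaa
Ftl1, chr7:45459780-45459806, minus strand: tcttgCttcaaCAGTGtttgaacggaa
Alas2, chrX:150547459-150547485, plus strand: tggttCgtcctCAGTGcagggcaacag
Coordinates are those of the GRCm38 build.

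Total counts per library ran from 43027778 to 70375852, and each of the 10 genes had between 1414 and 160456 counts in every library, so counting error is small beside the spread between livers. Levels are given as CPM, counts per 1000000 after TMM scaling, with the lowest, median and highest of the 6 libraries of a group. The 10 hepatocyte markers summed to between 111926 and 156027 CPM in oil and between 112209 and 163793 CPM in CCl4, with albumin, Alb, at 78023 ± 14782 CPM in oil and 77063 ± 15611 CPM in CCl4. Of these markers 3 fell (Tat, Apoa2 and Serpina1c), 2 rose (Ahsg and Apoc3) and 5 did not pass. Among all genes tested 18.4% fell and 20.6% rose. In whole liver fewer cells of a type and less RNA per cell cannot be told apart. Libraries also differed in how their counts leaned to short or long transcripts. For each library the difference of log2 CPM from the gene's mean over the 12 libraries was fitted on log2 exon length. This length slope ran from -0.15 to 0.25 in oil and from -0.37 to 0.16 in CCl4, and several results are also given adjusted for it. The slope was taken from the tested counts and lay lower in CCl4, with overlap. The adjustment can therefore also remove part of a difference between the groups.

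After 6 weeks of CCl4 the transferrin receptor gene Tfr2, the haem enzyme genes Alas2 and Fech and, narrowly, the transporter gene Slc11a2 were lower. The ferritin genes Fth1 and Ftl1, the most abundant of the set per kilobase, did not pass the test, nor did Alas1. Of the 10 genes 4 fell (Tfr2, Slc11a2, Alas2 and Fech), 0 rose and 6 did not pass at an adjusted p of 0.05 in edgeR's quasi-likelihood test. Across all 16032 genes tested 39.0% passed, with 20.6% higher and 18.4% lower in CCl4. The 4 of 10 falls thus stand beside a background of 18.4%, and the 4 of 10 calls in either direction beside 39.0%. At an unadjusted p under 0.05 there were 1 rise (Slc40a1) and 5 falls; DESeq2 gave 0 rises and 4 falls, and limma-voom 1 and 4. The median log2 fold change of the 10 was -0.38, against 0.01 for all genes tested. For Alas2 and Fech all CCl4 livers lay below all oil livers, as they did for 8.03% of genes tested (20.0% in either direction).

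**Figure D1:**
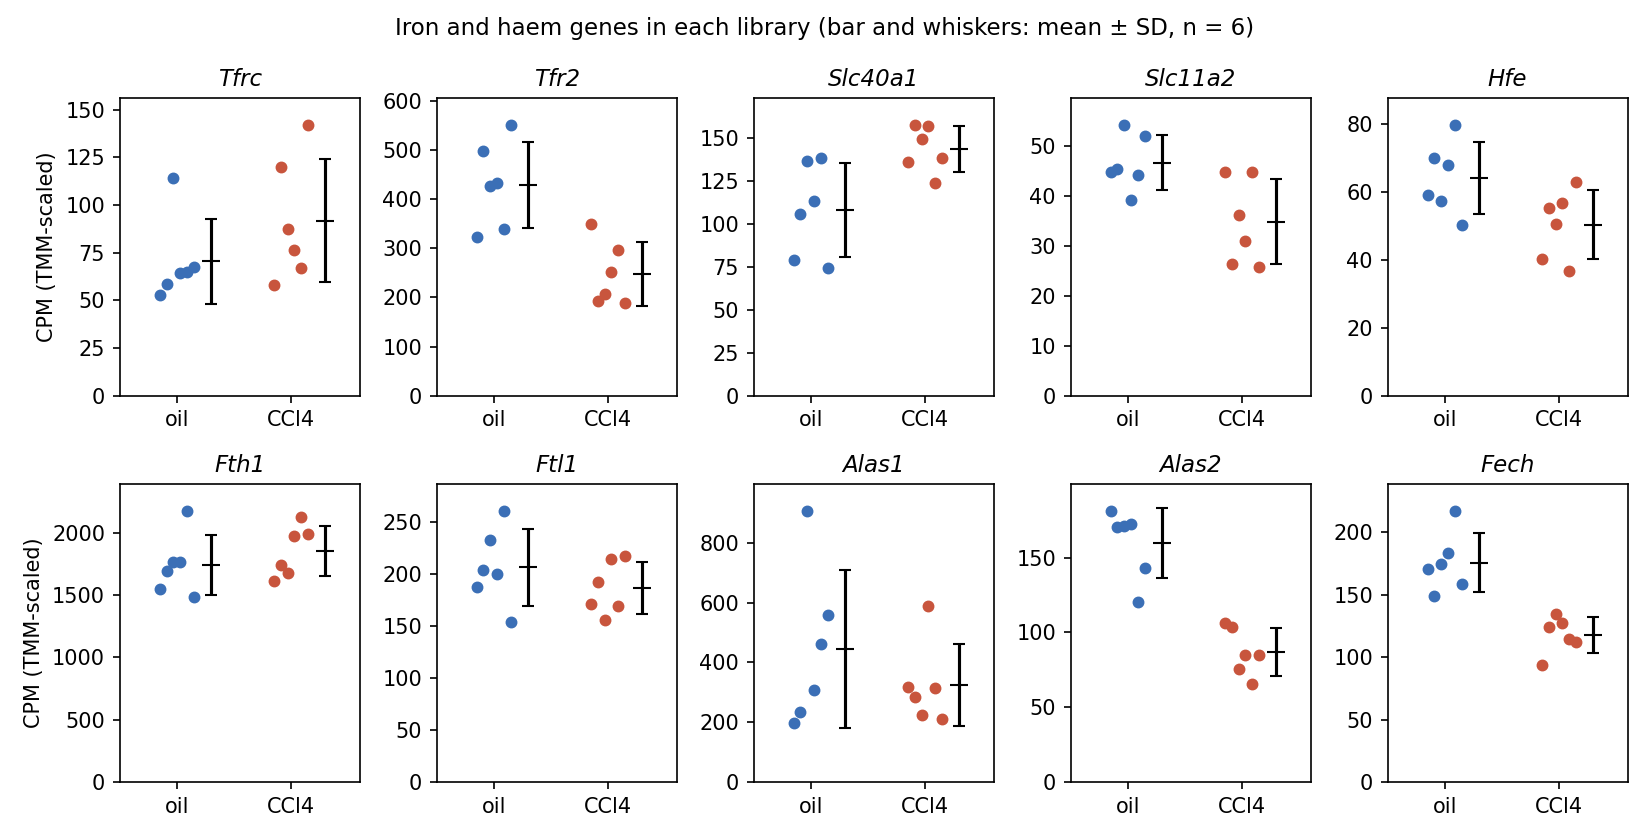
Each panel plots TMM-scaled CPM of a gene in the 6 oil (blue) and 6 CCl4 (red) libraries, with the mean ± SD beside them. Every axis starts at 0 and has its own scale. The groups are separate for Alas2 and Fech and overlap for the others, and a single oil library stands high for Tfrc (114 CPM) and for Alas1 (905 CPM).

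The levels differ widely between the genes. Per kilobase of exon in oil, Fth1 stood highest at 1116 ± 155 CPM per kb (SD, n = 6), followed by Ftl1 at 213 ± 37.9 and Tfr2 at 129 ± 26.6. Alas1 came next at 112 ± 66.7 CPM per kb and Alas2 at 78.5 ± 11.4. Lower were Slc40a1 at 32.0 ± 8.09, Fech at 24.4 ± 3.28, Hfe at 17.9 ± 2.95, Tfrc at 13.6 ± 4.27 and Slc11a2 at 8.15 ± 0.968 CPM per kb. Among oil livers only 3 steps in this order separated all libraries of a gene from all of the next: Fth1 from Ftl1, Alas2 from Slc40a1, and Tfrc from Slc11a2. In CCl4, Alas1 at 81.7 ± 34.7 and Tfr2 at 74.7 ± 19.5 CPM per kb changed places with overlapping ranges, as did Tfrc (17.7 ± 6.26) with both Fech (16.4 ± 2.01) and Hfe (14.1 ± 2.82). The level of Ftl1 is uncertain, since mouse ferritin genes have near-identical pseudogene copies and the sources used here do not say how shared reads were counted; the copies named in the table, Ftl1-ps1 and Ftl1-ps2, held 0.0804% and 0.0661% of the counts of Ftl1.

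Of the importers, only Tfr2 and Slc11a2 passed. Tfr2 (gene ID 50765, chromosome 5, 137569822 to 137588081) encodes the hepatocyte receptor that, with HFE, senses transferrin iron. It ranged from 324 to 551 CPM in oil (median 430) and from 189 to 349 CPM in CCl4 (median 230). A single CCl4 liver, replicate 1, reached the oil range. The fall was 1.73-fold (log2 fold change -0.79 ± 0.19 SE, adjusted p = 0.00408), and Tfr2 passed in all 19 alternative fits and leave-one-out runs, with adjusted p between 0.000125 and 0.0113.

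Tfrc (gene ID 22042, chromosome 16, 32608896 to 32632794), the general receptor that dividing cells and red cell precursors use most, ranged from 53.0 to 114 CPM in oil (median 64.6) and from 58.1 to 142 CPM in CCl4 (median 82.2). The groups overlapped almost throughout. Its log2 fold change of 0.38 ± 0.24 did not pass (adjusted p = 0.210). Without oil replicate 3, which held the 114 CPM, the log2 fold change was 0.57 (adjusted p = 0.0579), and after adjustment for the length slope it was 0.07 (adjusted p = 0.860). All 10 markers of dividing cells passed as higher in CCl4, beside 20.6% of all genes tested. Their sum ranged from 92.0 to 156 CPM in CCl4 and from 17.2 to 31.3 CPM in oil. Their part in the level of Tfrc was not tested.

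The balance between the receptors can be read inside each library, free of the scaling between libraries. The log2 ratio of Tfrc to Tfr2 per kilobase was -3.28 ± 0.44 in oil and -2.11 ± 0.84 in CCl4 (SD, n = 6 each), so Tfrc stood 2.24-fold higher relative to Tfr2 in CCl4 (exact two-sided permutation p = 0.0173, adjusted over 4 ratios p = 0.0390). The smallest p this design allows is 0.00216. When single libraries were left out the adjusted p ran from 0.0260 to 0.0866. It was above 0.05 with CCl4 replicate 2 or 3 removed, and with each oil replicate removed except 3. Tfrc has the longer transcript of the pair (exon length 5196 against 3317 bases), and the part of the length slope in this ratio was not tested.

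Slc11a2 (gene ID 18174, chromosome 15, 100387898 to 100424209) encodes DMT1, which moves ferrous iron out of endosomes after transferrin uptake. It ranged from 39.2 to 54.3 CPM in oil (median 45.1) and from 25.9 to 44.9 CPM in CCl4 (median 33.6). A pair of CCl4 livers, replicates 1 and 5, reached the oil range. The fall of 1.34-fold (log2 fold change -0.42 ± 0.16) passed narrowly (adjusted p = 0.0488). Its call was lost on removing replicate 2, 4 or 6 of the CCl4 group or 2, 3 or 6 of the oil group (adjusted p from 0.0678 to 0.108), with no filter (0.0704), with the stricter filter of 50 counts in 6 libraries (0.0633), with upper-quartile scaling (0.145), and after adjustment for the length slope (log2 fold change -0.21, adjusted p = 0.115).

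Hfe (gene ID 15216, chromosome 13, 23702034 to 23710854), whose loss causes hereditary haemochromatosis, ranged from 50.1 to 79.7 CPM in oil (median 63.5) and from 36.8 to 62.8 CPM in CCl4 (median 52.8). The groups overlapped, and its log2 fold change of -0.34 ± 0.15 did not pass (adjusted p = 0.0907). After adjustment for the length slope it was -0.63 ± 0.08 (adjusted p = 1.47e-05), and without CCl4 replicate 6 it was -0.42 (adjusted p = 0.0499). With that adjustment Hfe gained a call and Slc11a2 lost one.

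**Figure D2:**
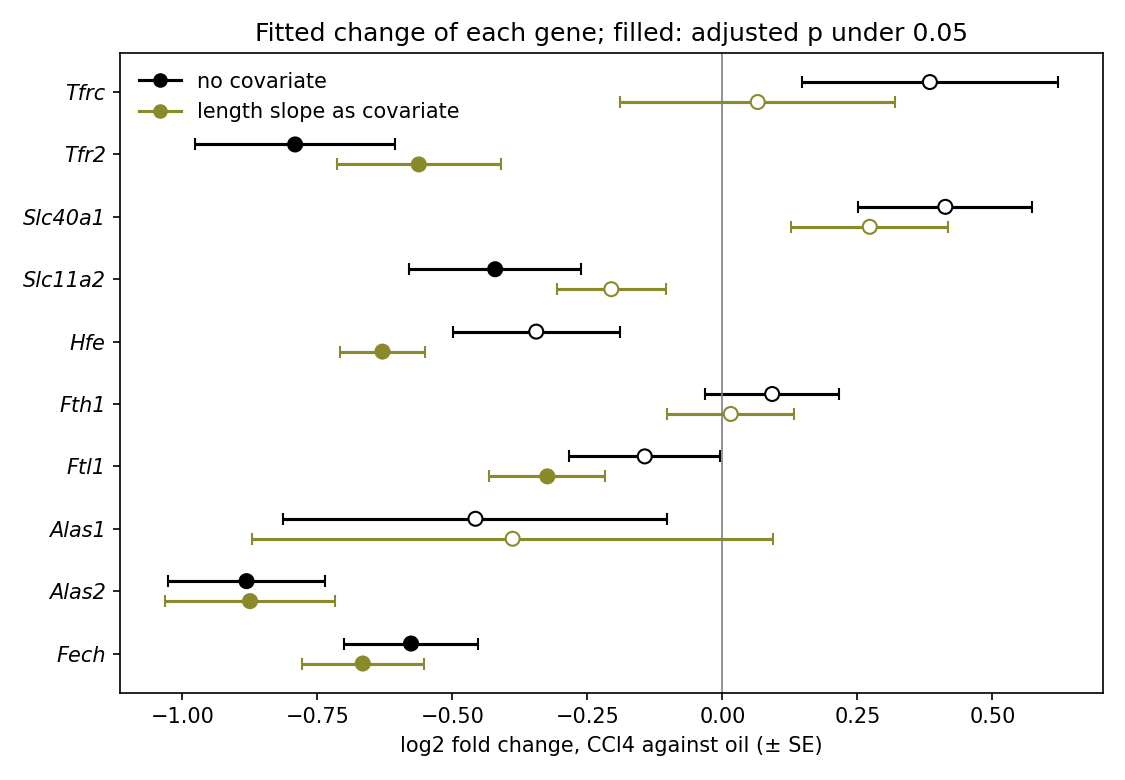
The log2 fold change of each gene (CCl4 against oil, ± SE) is plotted without (black) and with (olive) adjustment for library length slope; filled points have an adjusted p under 0.05. Tfr2, Alas2 and Fech are filled in both fits, Slc11a2 only without the adjustment, and Hfe (-0.63) and Ftl1 (-0.32) only with it.

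Neither the ferritin genes nor the exporter passed the test. Fth1 (gene ID 14319, chromosome 19, 9980600 to 9985111), the heavy ferritin chain that oxidises iron for storage, ranged from 1486 to 2171 CPM in oil (median 1729) and from 1614 to 2126 CPM in CCl4 (median 1856). The CCl4 livers lay inside the oil range (log2 fold change 0.09 ± 0.12, adjusted p = 0.571). Ftl1 (gene ID 14325, chromosome 7, 45457944 to 45459886), the light chain that helps the mineral core to form, ranged from 154 to 260 CPM in oil (median 202) and from 156 to 217 CPM in CCl4 (median 182), again with overlap (log2 fold change -0.14 ± 0.14, adjusted p = 0.430). After adjustment for the length slope Ftl1 was lower (log2 fold change -0.32, adjusted p = 0.0232).

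Within a library the heavy chain gained on the light chain by a small amount. The log2 ratio of Fth1 to Ftl1 per kilobase was 2.40 ± 0.11 in oil and 2.63 ± 0.19 in CCl4, a 1.17-fold shift (exact two-sided permutation p = 0.0195, adjusted p = 0.0390). The adjusted p ran from 0.0173 to 0.0866 without single libraries. It was above 0.05 with CCl4 replicate 2 or 3 removed, and with each oil replicate removed except 6. Fth1 has the longer transcript of the pair (exon length 1558 against 968 bases), and the part of the length slope in this ratio was not tested.

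Slc40a1 (gene ID 53945, chromosome 1, 45908070 to 45926532), ferroportin, is the exporter of iron from macrophages and hepatocytes. It ranged from 74.4 to 138 CPM in oil (median 110) and from 124 to 157 CPM in CCl4 (median 144). The lowest livers were all oil livers, and the oil livers were spread more widely. The log2 fold change of 0.41 ± 0.16 missed the threshold (adjusted p = 0.0552). It did not pass in 14 of 19 alternatives, and after adjustment for the length slope it was 0.27 (adjusted p = 0.146). It passed without oil replicate 3 (adjusted p = 0.0375) or 5 (0.0234), with limma-voom (0.0126), with upper-quartile scaling (0.0172) and with the stricter filter (0.0417). Relative to Fth1 in the same library Slc40a1 stood 1.28-fold higher in CCl4 (log2 ratio -4.80 ± 0.24 against -5.15 ± 0.23, exact two-sided permutation p = 0.0325, adjusted p = 0.0433), but the adjusted p was above 0.05, up to 0.0895, with any of CCl4 replicates 1 to 4 removed and with each oil replicate removed except 3. Of 12 macrophage markers 9 rose and 0 fell, beside a background of 20.6% higher and 18.4% lower. The counts were 11 and 0 at an unadjusted p under 0.05 and with limma-voom, and 9 and 0 with DESeq2. These markers summed to between 279 and 422 CPM in oil and between 619 and 1230 CPM in CCl4. Their part in the level of Slc40a1 was not tested. Nor was the part of the length slope in the ratio of Slc40a1 to Fth1 (exon length 3370 against 1558 bases).

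The erythroid haem enzyme fell furthest of the 10. Alas2 (gene ID 11656, chromosome X, 150547417 to 150570622) ranged from 120 to 181 CPM in oil (median 171) and from 65.5 to 106 CPM in CCl4 (median 85.0). No CCl4 liver reached the lowest oil liver. The fall was 1.84-fold (log2 fold change -0.88 ± 0.15, adjusted p = 0.000311), and it passed in all 19 alternatives, with log2 fold changes from -0.97 to -0.76. The span of Alas2 lies within that of Apex2, a DNA repair gene on the other strand. Whether their exons overlap was not checked, and the sources used here do not say whether counting used strand. How far reads of the pair were mixed is therefore not known. Apex2 held 5050 counts over all libraries, against 81083 for Alas2, and stood at 7.23 ± 0.942 CPM in oil and 7.25 ± 0.749 CPM in CCl4 (adjusted p = 0.984).

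ALAS2 is best known from red cell precursors, so markers of red cells are given beside it. Slc4a1, the anion exchanger of red cell membranes, stood at 0.481 ± 0.178 CPM in oil and 0.583 ± 0.396 CPM in CCl4 and did not pass (adjusted p = 0.620). Gata1, the master regulator of erythroid cells, had 0 counts in 5 of the 6 oil libraries; it was below the filter, and ranged from 0.0157 to 0.220 CPM in CCl4. Of 12 red cell genes looked up, 4 were below the filter, and of the 8 tested 2 rose, the alpha-globin copies Hba-a1 and Hba-a2, and 1 fell, Klf1 (background 20.6% and 18.4%). At an unadjusted p under 0.05 and with limma-voom 5 rose and 1 fell, and with DESeq2 3 and 1. The beta-globin gene Hbb-bs stood at 140 ± 87.0 CPM in oil and 354 ± 318 CPM in CCl4 (log2 fold change 1.34, adjusted p = 0.0730). Hbb-bt, its neighbour, had a log2 fold change of 1.24 (adjusted p = 0.0588). With limma-voom both passed (adjusted p = 0.0182 and 0.0193), and after adjustment for the length slope their log2 fold changes were -0.14 and -0.03. Hba-a1 stood at 24.4 ± 6.24 CPM in oil and 45.1 ± 24.2 CPM in CCl4 (log2 fold change 0.89, adjusted p = 0.0312). Neither copy passed after adjustment for the length slope (adjusted p = 0.236 for Hba-a1 and 0.143 for Hba-a2). Hba-a1 also lost its call on removing CCl4 replicate 2 or 6, or any oil replicate except 5, and Hba-a2 on removing CCl4 replicate 2 or 6 or oil replicate 1 or 6. Klf1, an activator of globin genes, stood at 1.67 ± 0.465 and 0.957 ± 0.211 CPM (log2 fold change -0.80, adjusted p = 0.0100). The summed level of the red cell genes ranged from 88.1 to 413 CPM in oil and from 136 to 1187 CPM in CCl4. Its part in the level of Alas2 was not tested. The alpha-globin copies Hba-a1 and Hba-a2 are near-identical to each other, as are the beta-globin genes Hbb-bs and Hbb-bt. The division of reads within each pair is uncertain.

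**Figure D3:**
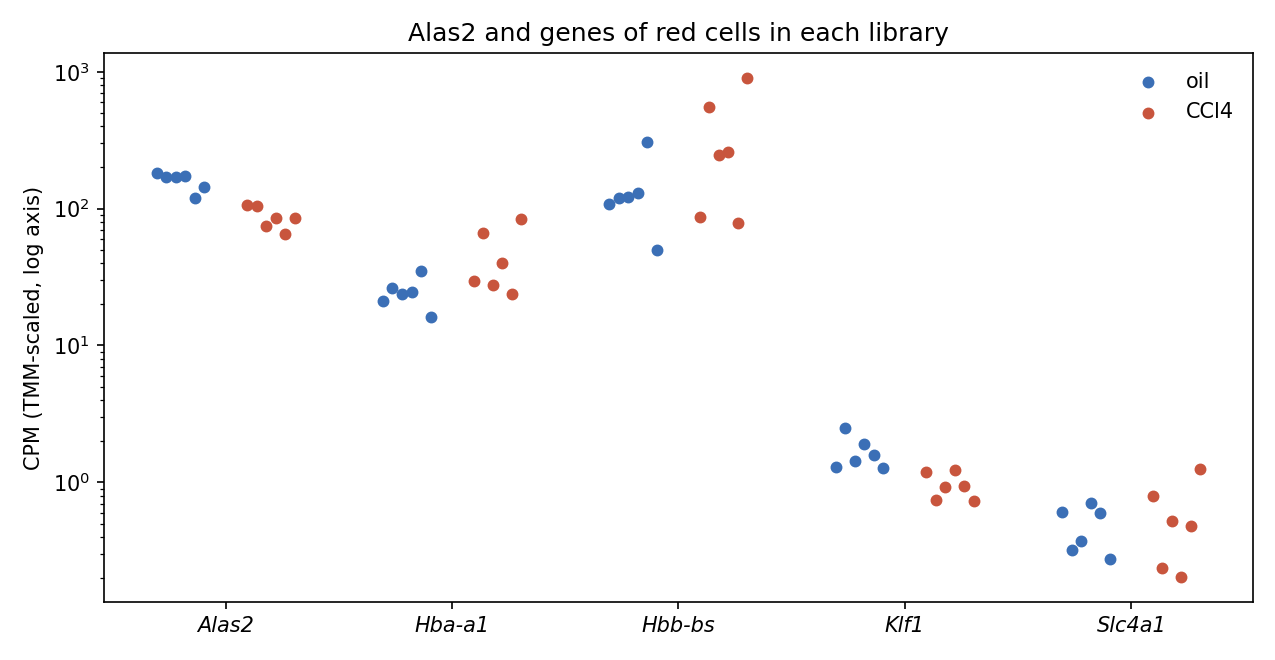
TMM-scaled CPM (log axis) of Alas2 and 4 genes of red cells is plotted for each oil (blue) and CCl4 (red) library. Alas2 lies at 65.5 to 181 CPM and lower in CCl4, while Hba-a1 and Hbb-bs reach their highest values in CCl4 libraries and Slc4a1 lies at 0.204 to 1.26 CPM.

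In red cell precursors the promoter of Alas2 is switched on by GATA1, which binds GATA motifs. The 250 bases upstream of the RefSeq start of Alas2 hold 1 match to AGATAA, with both strands searched. At least 1 match was found in 9.99% of all 32851 RefSeq promoters searched over the same length. A stretch of the Alas2 promoter is shown because it is the proximal promoter of the gene with the largest change in the set. The bases from -150 to -61 relative to the start (RefSeq, GRCm38.p6, chrX:150547267-150547356, plus strand) follow, with the match, on the minus strand, in capitals: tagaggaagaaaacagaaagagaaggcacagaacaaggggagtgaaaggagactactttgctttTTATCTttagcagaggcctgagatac

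Alas1 (gene ID 11655, chromosome 9, 106233455 to 106247954), the enzyme that paces hepatic haem synthesis and is induced by drugs and fasting, was the most variable of the 10. It ranged from 198 to 905 CPM in oil (median 383) and from 210 to 588 CPM in CCl4 (median 299). Its coefficient of variation was 59.5% in oil and 42.5% in CCl4. The groups overlapped throughout, and the log2 fold change of -0.46 ± 0.36 did not pass (adjusted p = 0.320). Without oil replicate 3, which held the 905 CPM, the log2 fold change was -0.13, and without CCl4 replicate 4, which held the 588 CPM, it was -0.72 (adjusted p = 0.122). With an SE of 0.36, a change of the size seen for Fech could have been missed.

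Fech (gene ID 14151, chromosome 18, 64456542 to 64489098), ferrochelatase, ranged from 149 to 217 CPM in oil (median 173) and from 93.6 to 135 CPM in CCl4 (median 119). The groups did not overlap. The fall was 1.49-fold (log2 fold change -0.58 ± 0.12, adjusted p = 0.00226), and it passed in all 19 alternatives, with adjusted p between 1.68e-05 and 0.00945. The log2 ratio of Alas1 to Fech per kilobase was 2.01 ± 0.80 in oil and 2.24 ± 0.55 in CCl4, a difference within the spread (exact two-sided permutation p = 0.556, adjusted p = 0.556).

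The rest of the haem pathway was read from a list of 14 genes, of which Alas1, Alas2 and Fech are 3. Of these 6 fell, 0 rose and 8 did not pass; at an unadjusted p under 0.05, with DESeq2 and with limma-voom the counts were also 6 and 0. The background is 18.4% lower and 20.6% higher. All 6 that fell had every CCl4 liver below every oil liver, as did 8.03% of all genes tested. The median log2 fold change was -0.39. Cpox, coproporphyrinogen oxidase of the mitochondrial intermembrane space, fell 1.91-fold from 144 ± 25.9 to 75.1 ± 14.2 CPM (adjusted p = 0.000416). Clpx, whose product unfolds mitochondrial proteins and acts on ALAS, fell 2.36-fold from 362 ± 40.4 to 154 ± 21.8 CPM (adjusted p = 6.61e-06). The ATP-binding cassette proteins Abcb10 and Abcb6, both linked to haem synthesis and named after their values were seen, fell 1.68-fold (adjusted p = 9.47e-05) and 1.55-fold (adjusted p = 0.000558).

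Several enzymes in between did not pass. Alad, which joins the first intermediates into a pyrrole, stood at 177 ± 13.8 CPM in oil and 156 ± 14.9 CPM in CCl4 (adjusted p = 0.188). Urod, a decarboxylase further along, was at 83.1 ± 6.47 and 73.9 ± 11.5 CPM (adjusted p = 0.274). After adjustment for the length slope both were lower in CCl4, with a log2 fold change of -0.28 for Alad (adjusted p = 0.0158) and -0.29 for Urod (adjusted p = 0.0383). Ppox, the mitochondrial enzyme before ferrochelatase, was at 23.6 ± 2.49 and 21.4 ± 2.56 CPM (adjusted p = 0.354).

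**Figure D4:**
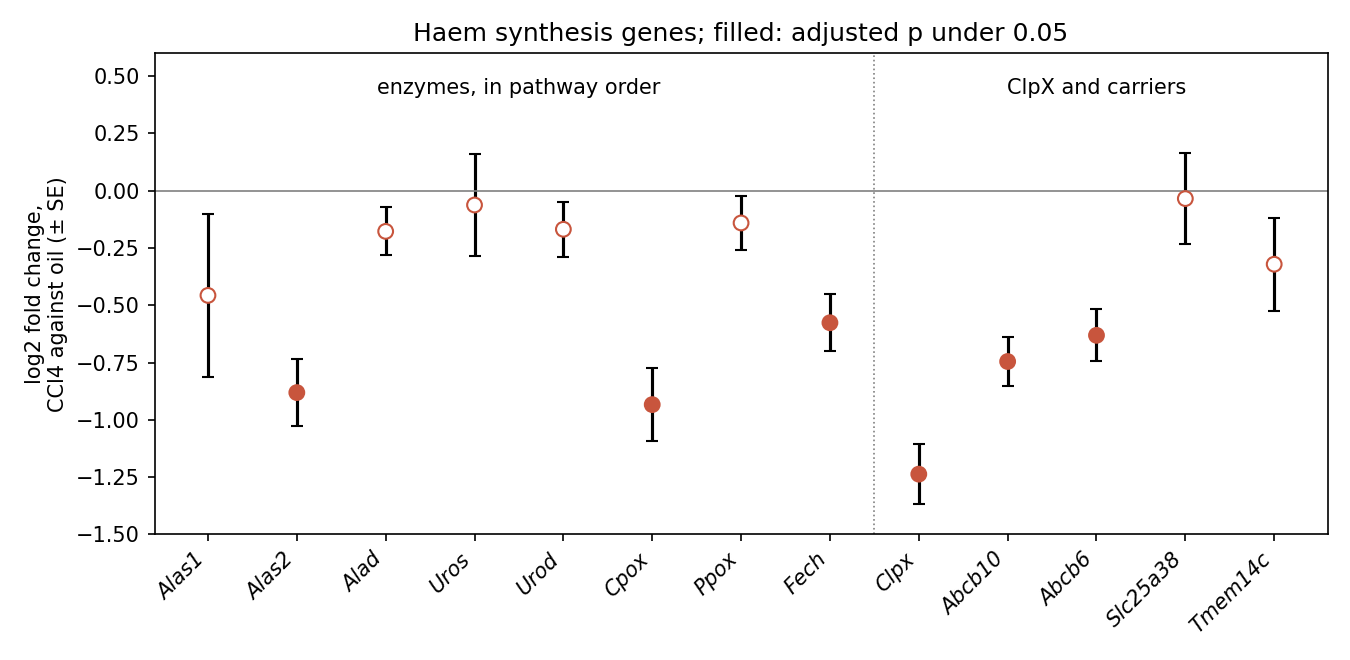
The log2 fold change (CCl4 against oil, ± SE) of the haem synthesis genes, all but 1 of the 14 on the list, is plotted, enzymes in pathway order and then ClpX and carriers; filled points have an adjusted p under 0.05. Alas2, Cpox, Fech, Clpx, Abcb10 and Abcb6 lie between -1.24 and -0.58, and no gene is filled above 0.

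Of 9 genes of haem breakdown and transport 3 rose and 2 fell, beside a background of 20.6% and 18.4%. At an unadjusted p under 0.05 and with limma-voom 5 rose and 2 fell, and with DESeq2 3 and 2. Hmox1, the inducible enzyme that opens haem and frees its iron, ranged from 17.4 to 62.5 CPM in oil (median 24.3) and from 47.7 to 58.6 CPM in CCl4 (median 49.8). The CCl4 livers were tightly grouped, and a single oil liver lay above them. The rise was 1.76-fold (adjusted p = 0.0225), but the call was lost on removing oil replicate 6 (adjusted p = 0.0524) and after adjustment for the length slope (adjusted p = 0.0504). Macrophages that clear red cells are rich in Hmox1, and the macrophage markers given above were higher in the same livers; their part was not tested. Flvcr1, a haem exporter, rose 1.53-fold (adjusted p = 0.0158), and Flvcr2, a related transporter, 1.55-fold (adjusted p = 0.0283), though Flvcr2 lost its call on removing CCl4 replicate 5 or oil replicate 1, 3 or 6. Abcg2, a porphyrin exporter, fell 1.78-fold from 104 ± 18.3 to 58.5 ± 7.23 CPM (adjusted p = 0.000298). Bach1, a repressor of Hmox1 that haem inactivates, fell 2.47-fold from 28.9 ± 7.96 to 11.7 ± 4.91 CPM (adjusted p = 0.00330); its log2 fold change was -1.30, and -0.77 after adjustment for the length slope.

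Of the 15 genes on the iron uptake list, which holds Tfrc, Tfr2 and Slc11a2, 2 rose, 4 fell and 9 did not pass. The share of calls was near the background of 39.0% in either direction, which is 20.6% higher and 18.4% lower. The falls included Tfr2 and Slc11a2, and the median log2 fold change was -0.20. Steap2, a metalloreductase, rose 1.93-fold from 6.95 ± 0.971 to 13.4 ± 1.90 CPM (adjusted p = 8.38e-05), while Steap3, the endosomal reductase that works with DMT1, fell 1.66-fold (adjusted p = 0.00589; log2 fold change -0.73, and -0.45 after adjustment for the length slope). Trf, transferrin itself, stood at 21643 ± 2763 CPM in oil and 25624 ± 2743 CPM in CCl4 (adjusted p = 0.128), and passed with upper-quartile scaling only (adjusted p = 0.0309). Slc39a14, which takes up iron not bound to transferrin, was at 219 ± 81.3 and 223 ± 56.3 CPM (adjusted p = 0.939). The other call up was Hpx, the haem scavenger hemopexin (1.93-fold, adjusted p = 0.0322; log2 fold change 0.95, and 0.35, no longer called, after adjustment for the length slope), and the other call down was Lrp1, its receptor (1.80-fold, adjusted p = 0.0187, and 0.0518 with that adjustment). Hpx also lost its call on removing CCl4 replicate 6 or oil replicate 1, 3, 4 or 6.

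On the side of storage and export 2 of 8 tested genes rose and 1 fell (background 20.6% higher and 18.4% lower), with a median log2 fold change of -0.03. Cp, ceruloplasmin, which oxidises the iron that ferroportin releases, rose 1.52-fold from 1087 ± 212 to 1650 ± 312 CPM (adjusted p = 0.00803). Heph, its membrane-bound relative, was near 1 CPM and rose 1.47-fold (adjusted p = 0.0460), a call lost in 13 of the alternatives, among them the removal of any of CCl4 replicates 2 to 6. Pcbp2, a chaperone that hands iron to ferritin, fell 1.27-fold (adjusted p = 0.0217), though not with upper-quartile scaling (adjusted p = 0.101). Ncoa4, the receptor that takes ferritin to lysosomes, stood at 5.85 ± 0.535 and 4.83 ± 0.996 CPM (adjusted p = 0.162). Among 10 genes of mitochondrial iron and iron-sulphur clusters 3 fell and 0 rose, beside a background of 39.0% in either direction and 18.4% lower. The median log2 fold change was 0.002. The counts were also 3 and 0 at an unadjusted p under 0.05, with DESeq2 and with limma-voom. Slc25a37, mitoferrin, the carrier of iron into mitochondria of red cell precursors, fell 1.89-fold from 59.0 ± 15.0 to 31.2 ± 10.3 CPM (adjusted p = 0.00681; log2 fold change -0.92, and -0.49 after adjustment for the length slope). The others were Nfs1, the cysteine desulphurase of cluster assembly (adjusted p = 0.0304), and Slc25a28, the broadly expressed mitoferrin (adjusted p = 0.0483); both lost their call with upper-quartile scaling and on removing oil replicate 3, and Slc25a28 in 9 other alternatives.

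Of 18 genes of iron sensing and hepcidin control, Hfe among them, 6 fell, 1 rose and 11 did not pass. The share of calls was at the background of 39.0% in either direction, which is 18.4% lower and 20.6% higher. The median log2 fold change was -0.25. Tmprss6, the protease that restrains hepcidin, ranged from 426 to 551 CPM in oil and from 227 to 341 CPM in CCl4 with no overlap, a 1.73-fold fall (adjusted p = 0.000217). Hjv, hemojuvelin, the BMP co-receptor on the same surface, fell 1.34-fold (adjusted p = 0.0261), a call lost on removing CCl4 replicate 4 or 6 or oil replicate 2 or 4, with upper-quartile scaling (0.114), and after adjustment for the length slope (adjusted p = 0.0634). Both iron regulatory protein genes fell: Aco1 by 1.65-fold from 268 ± 46.6 to 163 ± 37.6 CPM (adjusted p = 0.00452; log2 fold change -0.72, and -0.44 after adjustment for the length slope) and Ireb2 by 1.55-fold from 107 ± 9.64 to 69.2 ± 16.6 CPM (adjusted p = 0.00456). Of the 5 genes with the hairpins printed above 1 was called, the fall of Alas2, beside a background of 39.0% in either direction. A hairpin in a 5′ UTR acts on translation, which RNA levels do not show.

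Hamp, hepcidin, ranged from 58.3 to 637 CPM in oil (median 158) and from 268 to 727 CPM in CCl4 (median 347). Its log2 fold change of 0.90 ± 0.50 did not pass (adjusted p = 0.165). Without oil replicate 5, the oil liver with the 637 CPM, it was 1.53 (adjusted p = 0.00834), with limma-voom it was 1.42 (adjusted p = 0.0116), and after adjustment for the length slope it was 0.30 (adjusted p = 0.578). Hamp2, its close copy, stood at 3.37 ± 2.64 and 9.16 ± 8.97 CPM (adjusted p = 0.110; log2 fold change 1.45, and 0.21 after adjustment for the length slope). Bmp6, the signal from endothelial cells that raises hepcidin when iron is plentiful, was at 2.40 ± 0.655 and 1.71 ± 0.574 CPM (adjusted p = 0.136), and passed without CCl4 replicate 5 (adjusted p = 0.0430); its log2 fold change was -0.49, and -0.22 after adjustment for the length slope. Id1, a target of BMP signals, rose 3.51-fold from 3.56 ± 0.998 to 12.5 ± 6.12 CPM (adjusted p = 0.000238). On the same list Smad6 (log2 fold change -0.11, adjusted p = 0.523) and Smad7 (0.36, adjusted p = 0.0865) did not pass.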

How the data were processed

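RNA of whole liver was sequenced in 12 libraries with a stranded total RNA kit, per the labels' protocols. The authors deposited raw read counts per gene, on the GRCm38 build per the submitters' processing notes; the sources used here do not name the aligner, counter, annotation or use of strand. The series table equalled the sample files in all 12 columns. Gene IDs were named from RefSeq GRCm38.p6 (31049 IDs) and GENCODE M21 (78); 5401 IDs without a name held 2.19% of counts. Groups came from the treatment labels. No replicate pair of 30 was a repeat of 1 library (lowest chi-square per gene 49.4), and p-values measure the spread between these libraries.

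Genes passing filterByExpr were scaled by TMM and tested in edgeR 4.0.16 (R 4.3.3; robust quasi-likelihood F test, Benjamini-Hochberg adjustment over 16032 genes, threshold 0.05); the SE is the log2 fold change divided by the square root of F. Ratios used counts per kilobase of exon with a prior count of 2. Other runs used size factors of DESeq2, upper-quartile scaling, DESeq2 1.42.0, limma-voom with quality weights (limma 3.58.1), no filter, at least 50 counts in 6 libraries, the length slope as a covariate (13882 tested genes, 86.6%, had a length), and leaving out each library. The fit was tested on simulated data. The genes and lists were chosen with earlier results of these data known. Named genes were the 10, Apex2, fixed pathway genes, the called gene of smallest p in each direction of 6 lists, and the 3 genes most like each called gene; others were named after their values were seen. Ahsp was not matched to an ID, and some genes that are counted in the lists are not reported here by name.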

Additional observations from a re-analysis of the deposited data

Results flagged for a closer look

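The level of Tfrc in the oil group was set apart by 1 library. Oil replicate 3 stood at 114 CPM and the other 5 oil libraries between 53.0 and 67.3 CPM; on the log2 scale the gap to its nearest neighbour was 0.691 of the whole range of the group, above Dixon's critical value for 6 samples. The test was made in 20 groups of 6 (10 genes in each treatment) and marked 1, and chance marks about 1 in 20. The same library held the highest level of Alas1, 905 CPM.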

How the results depend on the processing

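Across the alternatives Tfr2, Alas2 and Fech kept direction and call, and Tfrc, Fth1 and Alas1 never passed. The number of the 10 genes that rose was 0, and it was 1 (Slc40a1) with upper-quartile scaling, with limma-voom and with the stricter filter; it ran from 0 to 1 when single libraries were left out, and the number that fell ran from 3 to 4. After adjustment for the length slope 5 fell (Tfr2, Hfe, Ftl1, Alas2 and Fech). Upper-quartile scaling moved the share of rises among all calls from 52.8% to 67.3%, and the median log2 fold change of all genes from 0.01 to 0.13. Leaving out single libraries gave differences in log2 ratio of 0.95 to 1.39 for Tfrc to Tfr2, 0.16 to 0.27 for Fth1 to Ftl1 and 0.30 to 0.43 for Slc40a1 to Fth1; prior counts of 0.5 and 10 changed no call. The causes of these changes were not tested. No paired analysis was possible because the labels give the groups no shared numbers.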

Other observations

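Of 12 genes of the microsomal P450 system 6 fell and 1, Cyp2b10, rose, beside a background of 18.4% and 20.6%, and 5 did not pass (Cyp3a11, Cyp2d10, Cyp2f2, Por and Cyb5a). At an unadjusted p under 0.05 9 fell, and with DESeq2 and limma-voom 8, with 1 rise in each. The 12 genes had a median log2 fold change of -0.68, and their summed level, in which Cyp2e1 stood at 6194 ± 689 CPM in oil and 507 ± 185 CPM in CCl4, ranged from 19439 to 27869 CPM in oil and from 9116 to 17608 CPM in CCl4, without overlap. All 8 markers of pericentral hepatocytes, where most of these enzymes reside, fell, beside a background of 18.4% (Cyp2e1 and Cyp1a2 are on both lists). Their sums were 7936 to 9617 CPM in oil, most of it Cyp2e1, and 733 to 1425 CPM in CCl4. Of 8 markers of periportal hepatocytes, Cyp2f2 among them, 3 fell, 2 rose and 3 did not pass. At an unadjusted p under 0.05, with DESeq2 and with limma-voom 4 fell and 2 rose. The periportal sums were 3833 to 7672 CPM in oil and 2258 to 4053 CPM in CCl4, with overlap.

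For each of the 4 genes that fell, the genes whose log2 CPM varied most alike within the groups were listed, by Pearson's r over the 12 libraries after centring each group, as a description of libraries that share depth and length slope. Alas2 was most like Ces3a (r = 0.90), Hsd3b3 (0.89) and Ttc39c (0.86). Fech was most like Vps35 (0.95), Rheb (0.94) and Gm4788 (0.94). Tfr2 was most like Serping1 (0.97), C4b (0.96) and R3hdm4 (0.96), and Slc11a2 was most like Qpctl, Mier2 and Pdcd11 (0.98 each).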
